A study of Rattus norvegicus with 6 samples.

Results

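The interferon response and antigen processing genes are 44 genes picked by name, covering the receptors, transcription factors, RNA sensors and antiviral effectors of the interferon pathway together with the machinery that cuts peptides and loads them on class I molecules. A gene was taken as measured where at least 1 probe set of the array is annotated with its symbol alone. This held for 42 genes with 59 probe sets, out of 14217 genes and 31042 probe sets in all. Ddx58, also called Rigi, is listed under the symbol Rig1 and was matched through its older name. Oas2 and Oasl2 have no probe set with a single symbol among those used here.

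The cells are LN4D6, a rat mammary tumour line. One group of 3 samples had been transfected with CREB3L1, a transcription factor that sits in the membrane of the endoplasmic reticulum until proteolysis frees it, and the other 3 samples were untransfected LN4D6 cells. The labels name no empty-vector control, no time after transfection and no clone, and none says whether the replicates were separate cultures, so the p-values cover the spread among these samples alone, which may be technical. Total RNA was read on Affymetrix 3' expression arrays, and expression is given as log2 RMA values, where 1 unit is a doubling.

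Both groups were compared to find transcripts whose level differs once CREB3L1 has been introduced. Each log2 difference is CREB3L1 minus untransfected, with its standard error (n = 3 each), tested with limma and adjusted by the Benjamini-Hochberg method over all 31042 probe sets. A gene counts as called at an adjusted p under 0.05. The background level was set at a log2 value of 5, and a gene is described as above background where at least 1 group mean reached it. The arrays held 33 of the 42 measured genes above background, 78.6% against 54.3% of all genes.

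Interferons are cytokines that warn cells of viral infection. Type I interferons act through a receptor that contains the Ifnar1 chain and through a complex that includes STAT2 and IRF9, which binds the interferon-stimulated response element (ISRE) of target promoters. Interferon gamma acts through Ifngr1 and on gamma-activated sites (GAS) of target promoters, and it raises the antigen processing genes in many cell types.

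Promoters are shown for genes whose values the account turns on. These are the interferon regulatory factors Irf7, Irf1 and Irf9, the effector Oasl and the immunoproteasome gene Psmb10. Each is the RefSeq window from 250 bases before to 50 bases after the annotated start, in assembly GRCr8. Isg15, which the account also turns on, is not shown because the RefSeq table held no such window for it. The windows are chr1:205799974-205800273 on the minus strand for Irf7, chr10:38417685-38417984 on the plus strand for Irf1, chr15:33065586-33065885 on the plus strand for Irf9, chr12:47356243-47356542 on the minus strand for Oasl and chr19:50743243-50743542 on the minus strand for Psmb10. Capitals mark matches to the ISRE core or to GAS as spelled out below the sequences.
Irf7: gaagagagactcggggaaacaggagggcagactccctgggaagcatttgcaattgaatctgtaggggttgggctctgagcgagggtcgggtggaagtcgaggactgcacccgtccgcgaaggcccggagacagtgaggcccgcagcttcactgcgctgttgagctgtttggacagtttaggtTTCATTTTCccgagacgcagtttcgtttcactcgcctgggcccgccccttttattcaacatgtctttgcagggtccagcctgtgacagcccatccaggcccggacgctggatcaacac
Irf1: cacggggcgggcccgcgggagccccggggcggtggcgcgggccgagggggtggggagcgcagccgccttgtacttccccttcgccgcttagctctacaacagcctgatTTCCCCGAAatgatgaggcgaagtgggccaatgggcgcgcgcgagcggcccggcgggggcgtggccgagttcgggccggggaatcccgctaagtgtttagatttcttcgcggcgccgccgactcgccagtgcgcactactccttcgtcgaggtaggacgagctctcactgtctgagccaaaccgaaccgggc
Irf9: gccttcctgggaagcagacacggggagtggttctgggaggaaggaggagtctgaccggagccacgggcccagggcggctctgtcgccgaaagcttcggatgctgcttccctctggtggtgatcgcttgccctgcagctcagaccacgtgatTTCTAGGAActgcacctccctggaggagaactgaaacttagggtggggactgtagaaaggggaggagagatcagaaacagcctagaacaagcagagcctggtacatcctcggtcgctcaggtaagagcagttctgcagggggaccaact
Oasl: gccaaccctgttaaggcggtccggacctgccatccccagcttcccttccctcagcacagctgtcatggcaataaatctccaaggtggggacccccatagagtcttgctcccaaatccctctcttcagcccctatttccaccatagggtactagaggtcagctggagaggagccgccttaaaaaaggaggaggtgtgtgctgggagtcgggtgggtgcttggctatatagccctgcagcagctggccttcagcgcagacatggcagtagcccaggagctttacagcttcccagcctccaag
Psmb10: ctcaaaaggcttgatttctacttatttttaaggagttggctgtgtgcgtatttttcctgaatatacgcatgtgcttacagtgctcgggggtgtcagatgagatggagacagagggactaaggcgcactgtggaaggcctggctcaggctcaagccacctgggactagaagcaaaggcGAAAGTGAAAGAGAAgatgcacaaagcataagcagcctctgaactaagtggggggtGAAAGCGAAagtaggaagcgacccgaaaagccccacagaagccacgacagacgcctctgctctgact

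The motifs searched were the ISRE core GAAANNGAA with its reverse complement TTCNNTTTC, GAS as TTCNNNGAA, the cyclic AMP response element (CRE) as TGACGTCA, and the unfolded protein response element (UPRE) core as TGACGTGG with CCACGTCA, where N is any base. Of the measured genes 33 had a window in the RefSeq table, and 21 of these held an ISRE core, 63.6% against 9.71% of all 33469 windows. GAS was matched in 9 of the 33, 27.3% against 8.87% of all windows. The CRE, found in 1.83% of all windows, and the UPRE core, found in 0.595%, were matched in 0 of the 33. These letters being absent from a window of this length says nothing about binding elsewhere. In Bst2 an ISRE core match overlapped a GAS match.

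Counted from the annotated start as 0, the Irf7 window held an ISRE core at -68 to -60, and the Irf1 and Irf9 windows held GAS at -142 to -134 and at -99 to -91. Psmb10 held 3 ISRE core matches, at -73 to -65, -67 to -59 and -17 to -9, of which the overlapping pair appears as 1 run of capitals. Oasl held no match to any of the 4 motifs. Among genes with a window and above background, the median log2 difference was 0.03 for the 16 with an ISRE core and -0.04 for the 10 without, with 1 called gene in each set. These medians are a description of the groups and carry no test.

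**Figure D1:**
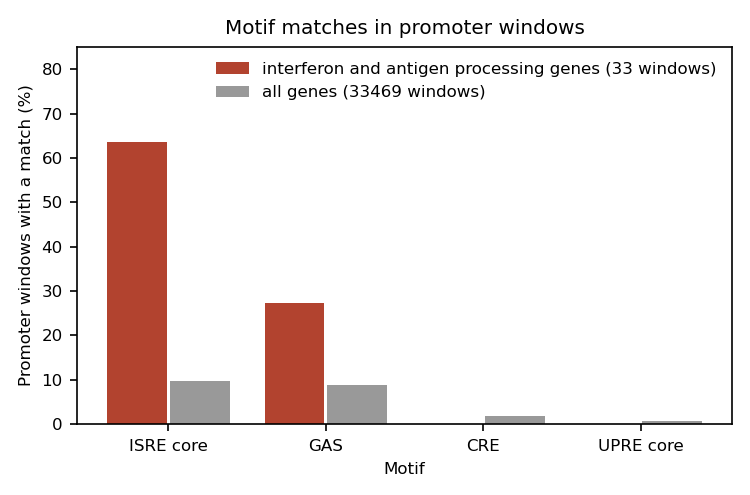
Share of promoter windows, in percent, with at least 1 match to each motif on either strand, for the 33 windows of measured interferon and antigen processing genes and for all 33469 windows. The ISRE core stands at 63.6% against 9.71%, GAS at 27.3% against 8.87%, and CRE and the UPRE core at 0 in the 33.

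Of the 42 measured genes, each read by its brightest probe set, 1 rose and 1 fell in CREB3L1 cells, and 40 did not pass the test. Over all genes 0.577% rose and 1.52% fell, 2.1% in either direction, so these counts are near the background. Counted by probe set, the same 2 of 59 were called, where the background is 1.39%. The median log2 difference of the measured genes was -0.02, against -0.01 over all genes, and no direction is drawn from it, since it turned to 0.0245 after a further quantile normalisation. The gene that rose was Irf7, and the gene that fell was Oasl.

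CREB3L1 replicate 3 stood apart from the other 5 arrays. Its Gapdh signal was 4.77 log2 units higher at the 3' than at the 5' control probe set, where the other arrays gave -0.16 to -0.10, and its beta-actin gap was 7.44 against 2.35 to 3.41. Among the 33 genes above background, 21 had this array outside the range of the other 5, a share that came to 70.4% over all genes above background. Values without it are given beside the differences it moved most. Without it 2 genes were called higher, Irf7 and Irf9, and 2 lower, Isg15 and Oasl, where 2.02% of all genes were called higher and 3.7% lower. The rat probe set of the transfected gene, Creb3l1, lay below background in both groups, at 3.39 ± 0.03 in CREB3L1 cells and 3.36 ± 0.02 in untransfected cells (SD, n = 3 each), and since the species of the construct is not given in the sources used here it checks neither the labels nor the transfection.

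Irf7, which encodes the interferon regulatory factor that amplifies type I interferon production, had log2 values of 8.99, 9.15 and 9.55 in CREB3L1 cells, against 7.88, 8.18 and 8.12 in untransfected cells. All 3 CREB3L1 arrays lay above all 3 untransfected arrays. The difference was 1.17 ± 0.17, which is 2.25-fold (adjusted p = 0.0480 by limma), with a 95% confidence interval of 0.75 to 1.59. Without CREB3L1 replicate 3, its highest array, the difference was 1.01 ± 0.11 (adjusted p = 0.0134). The call rests close to the threshold. It was lost after a further quantile normalisation (0.0602), after centring on array medians (0.0572), with robust moderation (0.0551), in a test without moderation (0.214) and without any 1 array other than CREB3L1 replicate 3 (0.0887 to 0.179).

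Oasl, which encodes a relative of the oligoadenylate synthetases, had log2 values of 4.25, 4.73 and 4.70 in CREB3L1 cells, against 6.28, 6.22 and 6.48 in untransfected cells. Every CREB3L1 array was below the background level and every untransfected array above it. The fitted difference was -1.77 ± 0.15 (adjusted p = 0.0109 by limma). Because the CREB3L1 mean has only a bound, the fold is given against the background level as at least 2.51-fold lower, and it was 3.40-fold or at least 1.25-fold with that level set at 4 or at 6. Without CREB3L1 replicate 3 the difference was -1.83 ± 0.16 (adjusted p = 0.00865). The call was lost in a test without moderation (0.0912) and without any 1 untransfected array (0.0563 to 0.0720). As background, the RefSeq table gives Oasl1 as another name of the rat gene, and in mouse the Oasl1 protein is known to hold back translation of the Irf7 mRNA. The arrays read mRNA and not translation, and a link between Oasl and Irf7 was not tested.

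**Figure D2:**
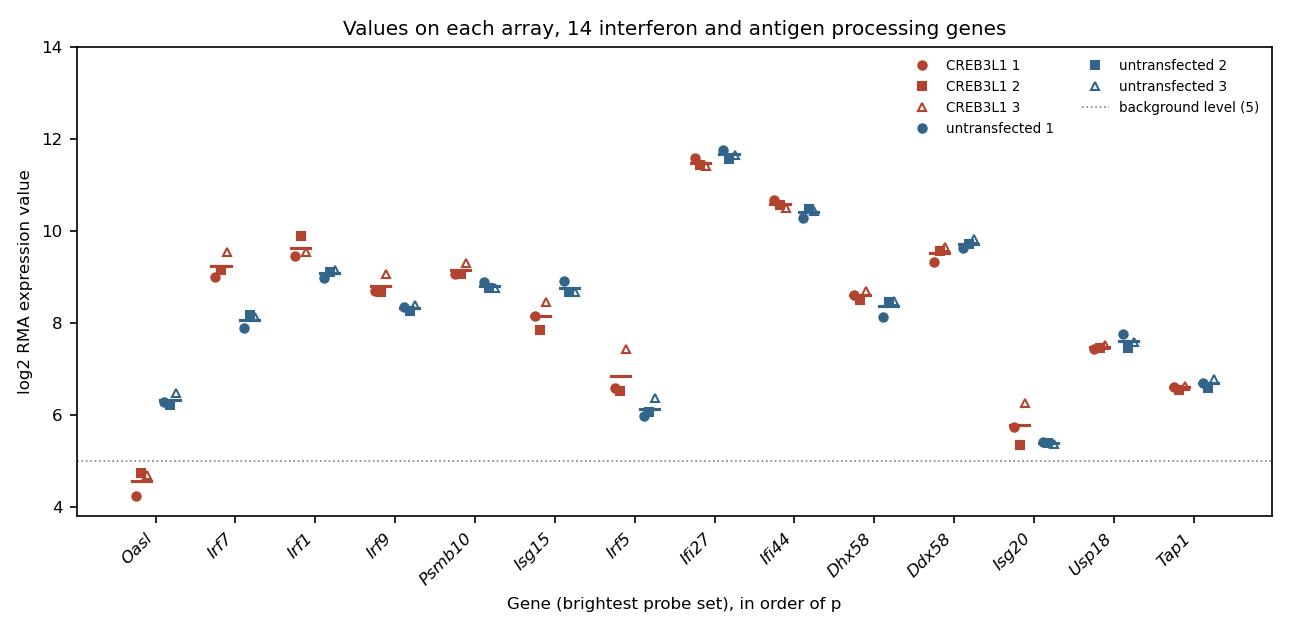
Log2 RMA expression value of 14 genes on each array, CREB3L1 on the left of each pair and untransfected on the right. Symbols are single arrays, bars are group means (n = 3 each), and the dotted line is the background level. The CREB3L1 points of Oasl lie below that line at 4.25 to 4.73. The CREB3L1 points of Irf7, Irf1, Irf9, Psmb10 and Irf5 lie above all their untransfected points, and so, narrowly, do those of Ifi44 and Dhx58.

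Among the 33 genes above background, the groups did not overlap in 9, where 31.2% of all genes above background showed the same. Of these 9, 7 were higher in CREB3L1 cells and 2 lower, where 14.7% of all genes above background lay higher without overlap and 16.5% lower. At an unadjusted p under 0.05 the test passed for 8 of the 42 measured genes, against 14% of all genes. By role these were 4 of 8 transcription factors, 2 of 17 antiviral effectors, 1 of 2 genes of the ISG15 system, 1 of 9 antigen processing genes and none of the receptors and sensors. The effectors were Oasl and Rsad2, and Rsad2 was below background in both groups.

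The transcription factors of the pathway held most of the genes whose groups separated upwards. Of 8 measured, 7 were above background, and in 4 of these, Irf7, Irf1, Irf5 and Irf9, every CREB3L1 array exceeded every untransfected array. Over all genes above background this pattern was seen in 14.7%, and 1 of the 4 passed the test.

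Irf1, a factor that interferon gamma raises, had 9.45, 9.89 and 9.55 in CREB3L1 cells, against 8.98, 9.10 and 9.16 in untransfected cells. Its difference was 0.55 ± 0.13 (95% confidence interval 0.23 to 0.87, adjusted p = 0.179 by limma). Leaving out CREB3L1 replicate 3 hardly moved the value, at 0.59 ± 0.14 (adjusted p = 0.114), and with weights per array it was called (0.0396).

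Irf9, the DNA-binding part of the complex that it forms with STAT2 after type I interferon, had 8.70, 8.68 and 9.06 in CREB3L1 cells, against 8.34, 8.25 and 8.38 in untransfected cells. The difference of 0.49 ± 0.12 did not pass with 6 arrays (adjusted p = 0.186). It passed without CREB3L1 replicate 3 (adjusted p = 0.0277 by limma). The difference itself was then smaller, 0.36 ± 0.05, and the remaining CREB3L1 arrays lay within 0.02 of each other. A second Irf9 probe set was below background in both groups.

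Irf5, known for its part in inflammatory cytokine expression, had 6.58, 6.52 and 7.43 in CREB3L1 cells, against 5.98, 6.05 and 6.36 in untransfected cells. CREB3L1 replicate 3 was the highest by a wide margin, and the difference of 0.71 ± 0.28 (adjusted p = 0.499) was 0.41 ± 0.12 without it (adjusted p = 0.182).

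The other factors did not separate. Irf3, which is present before infection and switched on by phosphorylation, differed by -0.04 ± 0.06 with a 95% confidence interval of -0.18 to 0.10. Irf2, an antagonist of Irf1, differed by 0.11 ± 0.13, and Stat2 by -0.11 ± 0.23, with -0.04 ± 0.14 on its other probe set. When CREB3L1 replicate 3 was left out these were -0.03 ± 0.06 for Irf2 and -0.32 ± 0.16 and -0.18 ± 0.07 for Stat2, and none passed the test (adjusted p = 0.999, 0.513 and 0.357). Irf8, a factor of myeloid and lymphoid cells, was below background on every array.

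At the receptors no difference passed the test. Ifnar1 had 9.74, 9.71 and 9.30 in CREB3L1 cells, against 9.47, 9.85 and 9.84 in untransfected cells, on its brightest probe set, a difference of -0.14 ± 0.16. A second Ifnar1 probe set above background gave 0.07 ± 0.05, and its other 4 were below background. Ifngr1 had 9.51, 9.76 and 8.93 in CREB3L1 cells, against 9.10, 9.75 and 9.46 in untransfected cells, and the groups overlapped. Its interval of -0.71 to 0.64 leaves room for a change of either sign. Without CREB3L1 replicate 3 the difference of Ifnar1 was 0.003 ± 0.13 and that of Ifngr1 0.20 ± 0.20, and neither passed the test. Socs1, the feedback inhibitor of the receptor-bound kinases, was below background in both groups.

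Of the ISG15 system, the listed genes were Isg15 and Usp18. Isg15 is a ubiquitin-like protein that is coupled to other proteins during the interferon response, and Usp18 is the protease that removes it. Isg15 had 8.16, 7.85 and 8.46 in CREB3L1 cells, against 8.90, 8.66 and 8.68 in untransfected cells, and the groups did not overlap, a downward separation that was seen in 16.5% of all genes above background. Its difference of -0.59 ± 0.17 (95% confidence interval -1.01 to -0.17) did not pass with 6 arrays (adjusted p = 0.275) and was -0.75 ± 0.12 without CREB3L1 replicate 3 (adjusted p = 0.0412 by limma). Usp18 had 7.42, 7.45 and 7.53 in CREB3L1 cells, against 7.75, 7.47 and 7.59 in untransfected cells, and these ranges overlapped.

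Among the cytosolic RNA sensors, Ddx58, which recognises viral RNA ends, had 9.32, 9.56 and 9.66 in CREB3L1 cells, against 9.62, 9.72 and 9.82 in untransfected cells (difference -0.21 ± 0.10, adjusted p = 0.704). Dhx58, a relative without signalling domains, had 8.62, 8.50 and 8.70 in CREB3L1 cells, against 8.13, 8.47 and 8.49 in untransfected cells. The Dhx58 groups were just separated, by the gap between 8.50 and 8.49, while a second Dhx58 probe set above background gave 0.04 ± 0.05. Neither sensor passed the test, and Ifih1, the sensor of long double-stranded RNA, was below background.

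Of 17 measured antiviral effectors, 11 were above background, 1 fell and 0 rose. Oasl was the one that fell. Ifi44 had 10.68, 10.56 and 10.49 in CREB3L1 cells, against 10.28, 10.49 and 10.44 in untransfected cells, and it was the remaining effector above background whose groups did not overlap (difference 0.18 ± 0.08, adjusted p = 0.589). Ifi27, an interferon-induced gene, had 11.60, 11.44 and 11.41 in CREB3L1 cells, against 11.76, 11.57 and 11.66 in untransfected cells, a difference of -0.18 ± 0.07 (adjusted p = 0.535). Isg20, an exonuclease that degrades viral RNA, had 5.73, 5.35 and 6.25 in CREB3L1 cells, against 5.41, 5.40 and 5.36 in untransfected cells, with CREB3L1 replicate 3 the highest, and its difference of 0.39 ± 0.23 was 0.15 ± 0.11 without that array.

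Oas1a, a synthetase of the oligoadenylates that activate RNase L, was uneven within the CREB3L1 group. Its values were 5.95, 4.98 and 4.30 in CREB3L1 cells, against 4.55, 4.39 and 4.40 in untransfected cells, so that CREB3L1 replicate 1 alone stood well clear of the background level. The difference of 0.64 ± 0.42 did not pass the test (adjusted p = 0.918). Without CREB3L1 replicate 3 it was 1.03 ± 0.28 (adjusted p = 0.161), and both remaining CREB3L1 arrays lay above all 3 untransfected arrays. Oas1b, its close relative, was below background in both groups.

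Several effectors had narrow intervals around 0. Ifitm3, a membrane protein that blocks viral entry, differed by -0.02 ± 0.08 (95% confidence interval -0.22 to 0.18), and Eif2ak2, the kinase that stops translation on sensing double-stranded RNA, by 0.00 ± 0.09 (-0.21 to 0.22). Ifit2, which restrains viral translation, differed by -0.03 ± 0.10 (-0.29 to 0.22), and its other probe set gave -0.12 ± 0.15. With CREB3L1 replicate 3 left out these were 0.03 ± 0.08 for Ifitm3, 0.08 ± 0.06 for Eif2ak2 and 0.07 ± 0.05 for the brightest Ifit2 probe set, and none passed the test. The dynamin-like GTPase gene Mx2 had 4.83, 4.91 and 5.15 in CREB3L1 cells, against 4.87, 4.92 and 5.45 in untransfected cells, near the background level throughout. Ifit1, Ifit3, Mx1, Ifitm1 and Rsad2 were below background in both groups, along with Oas1b. Rsad2, which encodes viperin, had 2.58, 2.55 and 2.83 in CREB3L1 cells, against 4.06, 2.97 and 3.48 in untransfected cells, and no fold is given. Its groups did not overlap, with a difference of -0.85 ± 0.28 (unadjusted p = 0.0279, adjusted p = 0.388 by limma).

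All 9 antigen processing genes were measured and above background, and 0 were called by limma, where the background over all genes is 2.1%. At an unadjusted p under 0.05 1 of them passed, Psmb10, where 14% of all genes did. The immunoproteasome subunits Psmb8, Psmb9 and Psmb10 replace the standard catalytic subunits under interferon gamma, and Psme1 and Psme2 form the activator that opens the core particle. Psmb8 differed by 0.03 ± 0.05 (95% confidence interval -0.09 to 0.15), Psme1 by -0.04 ± 0.05 (-0.17 to 0.09) and Psme2 by 0.05 ± 0.06 (-0.09 to 0.20). Psmb10 had 9.07, 9.06 and 9.31 in CREB3L1 cells, against 8.90, 8.76 and 8.77 in untransfected cells, and these did not overlap. Its difference of 0.34 ± 0.09 (adjusted p = 0.220) was 0.25 ± 0.06 without CREB3L1 replicate 3 (adjusted p = 0.0932) and was called with weights per array (0.0373 by limma).

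The peptide transporter subunits Tap1 and Tap2, the loading factor Tapbp and the class I light chain B2m gave no call. Tap1 had 6.62, 6.55 and 6.63 in CREB3L1 cells, against 6.69, 6.59 and 6.79 in untransfected cells, a difference of -0.09 ± 0.06 that took the opposite sign, 0.0853, after a further quantile normalisation. Tap2 differed by -0.05 ± 0.19, or -0.24 ± 0.11 without CREB3L1 replicate 3 (adjusted p = 0.470), and Tapbp by 0.07 ± 0.06. The brightest B2m probe set, at 15.73, 15.69 and 15.83 in CREB3L1 cells and 15.79, 15.65 and 15.71 in untransfected cells, differed by 0.03 ± 0.06 with a 95% confidence interval of -0.11 to 0.18. The promoter windows of Psmb9 and Tap1 lie head to head on opposite strands and share 44 bases.

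**Figure D3:**
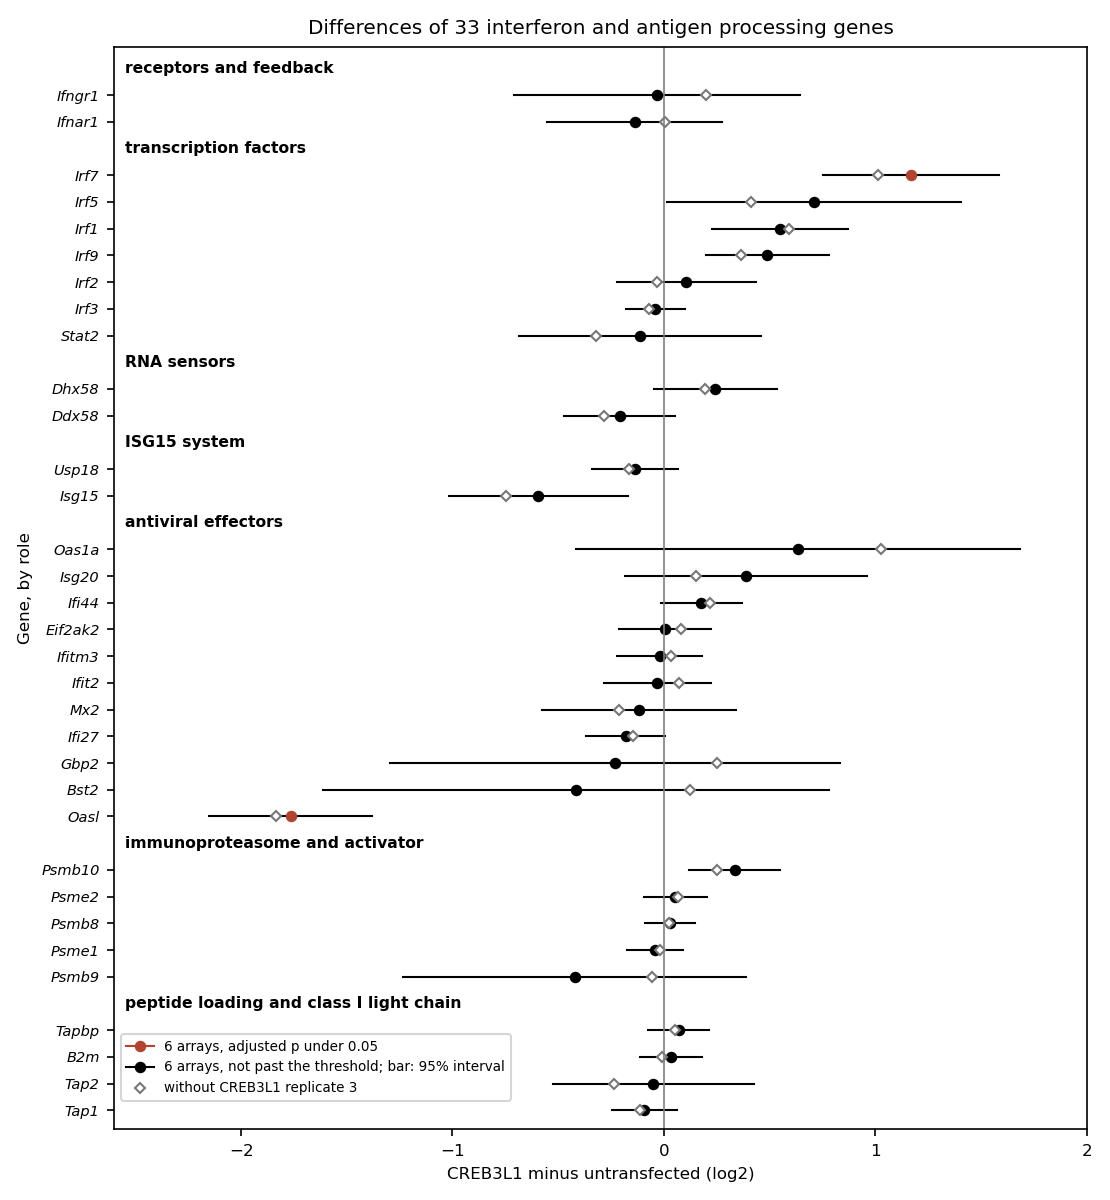
Log2 difference, CREB3L1 minus untransfected, of the 33 genes above background, grouped by role. Dots and bars are the estimate and 95% confidence interval from all 6 arrays, and diamonds are the estimate without CREB3L1 replicate 3. Irf7 at 1.17 and Oasl at -1.77 are the genes past the threshold. The bars of Bst2, Gbp2, Oas1a and Psmb9 are among the widest.

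In Bst2, Gbp2 and Psmb9 CREB3L1 replicate 3 was far below the other CREB3L1 arrays. Bst2, which tethers budding virus to the cell surface, had 14.05, 13.90 and 12.35 in CREB3L1 cells, against 14.01, 13.83 and 13.70 in untransfected cells. The guanylate-binding protein gene Gbp2 had 10.84, 10.88 and 9.41 in CREB3L1 cells, against 10.71, 10.69 and 10.44 in untransfected cells, and Psmb9 had 11.65, 11.57 and 10.51 in CREB3L1 cells, against 11.76, 11.68 and 11.55 in untransfected cells. In all 3 genes CREB3L1 replicate 3 was more than 1 log2 unit below every other array, a pattern that 3.20% of all genes above background shared. Without that array the differences were 0.13 ± 0.10 for Bst2, 0.25 ± 0.09 for Gbp2 and -0.06 ± 0.07 for Psmb9, and none passed the test (adjusted p = 0.862, 0.311 and 0.996). The other B2m probe set behaved likewise, at 11.49, 11.31 and 10.07 in CREB3L1 cells against 11.84, 11.66 and 11.37 in untransfected cells. Its difference was -0.67 ± 0.40 with 6 arrays and -0.22 ± 0.15 without CREB3L1 replicate 3, and it passed in neither. The array's wide gap between 3' and 5' control probe sets moves with these values, and its part in them was not tested.

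**Figure D4:**
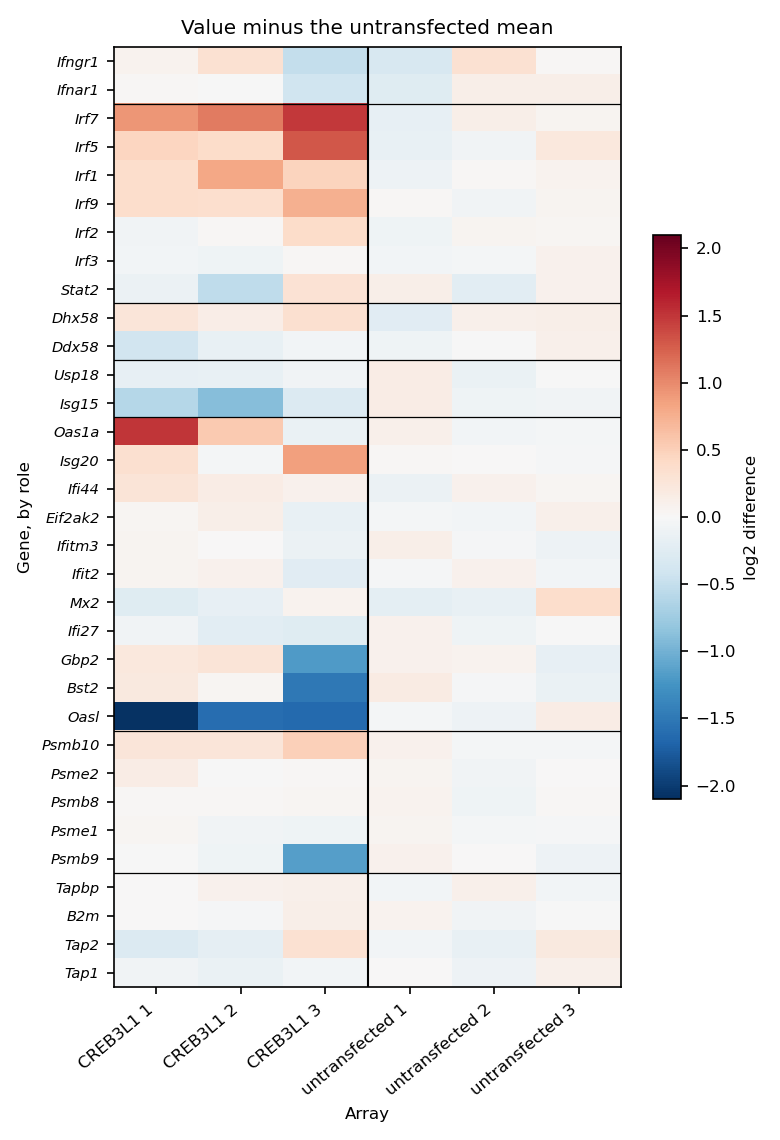
Value on each array minus the mean of the 3 untransfected arrays, on the log2 scale, for the 33 genes above background in rows and the 6 arrays in columns. Irf7 is high and Oasl low on all 3 CREB3L1 arrays, while Bst2, Gbp2 and Psmb9 are low on CREB3L1 replicate 3 alone.

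The precision of the arrays limits what a missing call can say. For 20 of the 33 genes above background the unadjusted 95% confidence interval lay inside a 1.5-fold change either way, and over all genes above background this share was 60.1%. The median absolute difference of the 33 genes was 0.14, against 0.17 over all genes above background.

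Further genes of both pathways were read from lists of their own. Of 59 other interferon pathway genes measured, 1 rose and 1 fell, again close to the 0.577% and 1.52% of all genes. At an unadjusted p under 0.05, 12 of the 59 passed, against 14% of all genes. Casp1, the protease that matures interleukin 1 beta, had 5.93, 5.89 and 5.73 in CREB3L1 cells, against 8.89, 8.80 and 8.29 in untransfected cells. It was 7.01-fold lower without overlap, a difference of -2.81 ± 0.17 (adjusted p = 0.00389 by limma), and the call was lost in a test without moderation (0.0530). Gch1, the entry enzyme of tetrahydrobiopterin synthesis, had 5.38, 5.25 and 5.79 in CREB3L1 cells, against 4.40, 4.40 and 4.31 in untransfected cells. With the untransfected mean below background, it was at least 1.39-fold higher (difference 1.10 ± 0.14, adjusted p = 0.0384 by limma), and this call was lost under the same alternatives as that of Irf7 except robust moderation, and when the probe sets of each gene were averaged.

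Without CREB3L1 replicate 3, 3 of the 59 other interferon pathway genes were called higher and 2 lower, where 2.02% and 3.7% of all genes were. Besides Gch1 and Casp1 these were Pml, Jak2 and Cxcl10, named here after their values were seen. Cxcl10, a chemokine that interferon gamma induces, had 7.77, 7.85 and 6.09 in CREB3L1 cells, against 9.68, 9.39 and 9.04 in untransfected cells, a difference of -2.13 ± 0.52 with 6 arrays (adjusted p = 0.200) and -1.56 ± 0.19 without CREB3L1 replicate 3 (adjusted p = 0.0192 by limma). Pml, the organiser of nuclear bodies, had 9.83, 9.91 and 10.35 in CREB3L1 cells, against 9.20, 9.05 and 9.26 in untransfected cells, with 0.70 ± 0.07 after that array was left out (adjusted p = 0.0131 by limma, against 0.0884 with 6 arrays). Jak2, a kinase bound to the interferon gamma receptor, had 7.97, 7.98 and 6.81 in CREB3L1 cells, against 7.09, 7.38 and 7.20 in untransfected cells, so that CREB3L1 replicate 3 was below all the untransfected arrays while the other 2 lay above them. The Jak2 difference was 0.37 ± 0.34 with 6 arrays (adjusted p = 0.9998 by limma). It was 0.76 ± 0.09 without CREB3L1 replicate 3 (adjusted p = 0.0178 by limma), so the call rests on leaving out that array.

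Of 48 other antigen processing genes measured, among them the constitutive proteasome subunits and the RT1 genes of the rat major histocompatibility complex, 0 were called by limma with 6 arrays or without CREB3L1 replicate 3. At an unadjusted p under 0.05, 1 of the 48 passed, against 14% of all genes. The smallest p belonged to Rfx5, a regulator of class II genes, at -0.47 ± 0.12 (adjusted p = 0.209), and to Psmf1, a proteasome inhibitor, at 0.11 ± 0.05 (adjusted p = 0.620). With weights per array Rfx5 was called lower (0.0411). RT1 genes share sequence, so their probe sets may read more than 1 of them.

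No marker gene of another cell type was called. Leukocytes, which carry much of the interferon response in tissue, were marked by 1 of 10 measured genes above background, Csf1r, while Ptprc and Cd74 were at 2.93 ± 0.16 and 2.14 ± 0.02 in CREB3L1 cells and at 2.95 ± 0.09 and 2.15 ± 0.03 in untransfected cells. Laptm5, another leukocyte marker, was also below background, at 2.12 ± 0.02 in CREB3L1 cells and 3.12 ± 0.50 in untransfected cells (SD, n = 3 each), and these groups did not overlap (adjusted p = 0.209 by limma). Its part in the interferon values was not tested. None of the 6 fibroblast and 5 endothelial markers was above background. Of 9 mammary epithelial markers Krt5, Krt8 and Krt14 were above background. The others, Krt7, Krt18, Krt19, Epcam, Cdh1 and Cldn4, were below that level in both groups.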

How the data were processed

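Gene expression was measured in 3 CREB3L1-transfected and 3 untransfected samples. The submitters' processing notes name RMA and Partek 6.6 as the tools behind the deposited log2 values. No source used here gives the log base. The values run from 0.27 to 17.2 and were taken as log2. After 57 controls were set aside, 31042 probe sets were fitted with R 4.3.3 and limma 3.58.1, using lmFit on the group means and plain eBayes with two-sided tests, with no batch or pairing in the labels to add. Symbols came from GEO's platform annotation, checked through Entrez identifiers against the RefSeq table of GRCr8 (20826 probe sets had 1 symbol, 436 several and 9780 none). The probe set brightest on average stood for its gene. The fit was run on simulated data with known changes and independent noise. No simulated array stood apart as CREB3L1 replicate 3 does, so that run does not bear on the effect of this array. No detection calls were used, so the level of 5 is a working bound. The genes named in full are those called plus those of smallest p above background, 14 in all, and up to 5 called genes (or the 2 of smallest p) from each further list. Members, lists, motifs and tests were chosen with earlier results of these data known. Alternatives were other normalisations, a filter on dim probe sets, other moderation, array weights, each array left out, the mean of a gene's probe sets and background levels of 4 and 6. The number of arrays limits the precision.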

Additional observations from a re-analysis of the deposited data

How the results depend on the processing

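No paired analysis was possible because no replicate number in the labels links samples of both groups. With 6 arrays, 132 probe sets were higher and 299 lower over the whole table, and leaving out each array in turn gave 28 to 479 higher and 116 to 756 lower, the highest counts without CREB3L1 replicate 3. Over the same settings 0 to 2 of the interferon and antigen processing genes were higher and 0 to 2 lower, by gene and by probe set, their median difference ran from -0.0225 to 0.0240, and 0 to 3 other interferon pathway genes were higher and 1 to 2 lower. A further quantile normalisation gave 0 higher genes, a median difference of 0.0245 and 0 other interferon pathway genes higher, and centring on array medians gave 0 and 0 higher. Robust moderation gave 0 higher genes. A mean-variance trend left the calls of Irf7 and Oasl and gave 79 higher probe sets over the table. The test without moderation called 9 probe sets higher and 65 lower, 0 of the listed genes in either direction and 0 of the other interferon pathway genes in either direction. Weights per array called 600 higher and 952 lower, 4 listed genes higher (Irf7, Irf1, Irf9, Psmb10) and 2 lower (Oasl, Isg15), with a median difference of 0.0157, 3 and 3 of the other interferon pathway genes, and 1 of the other antigen processing genes lower. Averaging the probe sets of each gene gave 0 other interferon pathway genes higher. Tap1 turned to 0.0853 after quantile normalisation. Across the 14 named genes and 13 alternatives, 162 of the values kept their direction and their side of the threshold, 13 lost a call, 6 gained one and 1 turned round. The cause was not tested in any of these.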
